A study of Mus musculus with 4 samples.

Results

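The genes described are 10 members of the extracellular protease system of macrophages: the matrix metalloproteinases Mmp8, Mmp9, Mmp12, Mmp13, Mmp14 and Mmp19, the membrane-anchored ADAM proteases Adam8 and Adam17, and the inhibitors Timp1 and Timp2. They were found by gene symbol among the 55536 annotated genes of the deposited tables, and all 10 were present and had counts in every library. The series holds 4 polyA-plus RNA-seq libraries, biological replicates 1 to 4, from bone-marrow-derived macrophages of C57BL/6J mice, which are macrophages grown in culture from marrow precursors. All 4 belong to 1 group: cells given 100 ng/ml Lipid A, the part of bacterial endotoxin that TLR4 senses, for 12 h, washed out for 12 h and taken at 0 min of restimulation. Other label fields name the agent lipoprotein A. The sex and age of the mice were not collected, and the 4 samples carry 1 donor identifier, so a p-value here measures only the spread between these libraries. There is no untreated group, and the values are levels in pretreated cells, not responses to the pretreatment.

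Matrix metalloproteinases are zinc endopeptidases that cut collagens, elastin and other proteins around cells. They are made as inactive precursors and are blocked by tissue inhibitors of metalloproteinases (TIMPs). ADAM proteases use the same zinc chemistry to release the outer parts of membrane proteins, a process called shedding, and ADAM17 is best known for releasing tumour necrosis factor from macrophages.

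Levels are given in TPM, the authors' measure that divides by gene length and by the total of the library. Total expected counts ran from 25594340 in replicate 1 to 57126810 in replicate 4. The rRNA gene CT010467.1 set replicate 1 apart, with 84919.8 TPM there against 10124, 3125.48 and 3490.44 TPM in replicates 2, 3 and 4. Mitochondrial genes took 0.778%, 1.16%, 3.34% and 3.00% of the counts in replicates 1 to 4. All 10 macrophage markers, led by Lyz2, Ctsd and Cd68, averaged 10 TPM or more. Fibroblast markers, led by Thy1, Col6a3 and Dcn, summed to 0.56 to 2.5 TPM, and lymphocyte markers, led by Cd3e, Cd3d and Cd79a, to 0.04 to 0.89 TPM. Endothelial markers summed to 10.5 to 43.5 TPM, mostly Kdr, Vwf and Cdh5. Neutrophil and precursor markers summed to 91.3, 14.8, 80.8 and 7.36 TPM in replicates 1 to 4, mostly S100a9 and S100a8, then Ngp, and the neutrophil genes Ly6g and Retnlg were listed at 0 in every library. Osteoclast markers summed to 90.7, 42.9, 73.7 and 47.0 TPM, mostly Acp5, Atp6v0d2 and Ctsk, and Calcr was at 0.

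The upstream sequences of 4 members are shown because these genes mark the ends of the range described below: Mmp13 and Adam8 were the members that stood far higher in 1 library, Mmp14 was among the steadiest genes, and the second RefSeq start of Mmp12 shares 2 motifs with Mmp13. Each is 200 bases on the strand of the gene, 5′ to 3′, ending at the base before the transcript start in RefSeq (GRCm38.p6, the same assembly as mm10), and none overlaps an annotated exon. Capitals mark any match, on either strand, to 1 of 5 motifs: AP-1 (TGANTCA), the TATA box (TATAAA), the GC box (GGGCGG), a RUNX motif (TGTGGT) and an ETS motif (AGGAAGT). The stretches lie at chr9:7272314-7272513 (plus strand) for Mmp13, chr9:7347174-7347373 (plus strand, intronic in the longer annotated Mmp12 transcripts) for the second RefSeq start of Mmp12, chr7:139992563-139992762 (minus strand) for Adam8 and chr14:54431398-54431597 (plus strand) for Mmp14.
Mmp13: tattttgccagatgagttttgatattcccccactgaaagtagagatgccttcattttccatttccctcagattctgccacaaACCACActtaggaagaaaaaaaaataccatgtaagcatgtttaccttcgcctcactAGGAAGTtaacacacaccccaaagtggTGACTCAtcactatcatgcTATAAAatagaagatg
Mmp12: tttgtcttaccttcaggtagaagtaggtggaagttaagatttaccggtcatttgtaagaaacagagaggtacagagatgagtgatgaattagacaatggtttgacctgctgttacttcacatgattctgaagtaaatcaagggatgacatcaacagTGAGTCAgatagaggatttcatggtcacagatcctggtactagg
Adam8: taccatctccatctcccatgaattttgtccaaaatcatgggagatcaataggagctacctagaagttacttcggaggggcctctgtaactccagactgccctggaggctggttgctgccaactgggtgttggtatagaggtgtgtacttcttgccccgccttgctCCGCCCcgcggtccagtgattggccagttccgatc
Mmp14: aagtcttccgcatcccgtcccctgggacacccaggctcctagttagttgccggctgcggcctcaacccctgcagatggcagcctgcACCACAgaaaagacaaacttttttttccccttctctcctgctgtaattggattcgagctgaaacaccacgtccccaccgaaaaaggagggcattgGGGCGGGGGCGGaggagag
In the Mmp13 stretch the capitals are, in order, a RUNX match on the other strand, an ETS match, an AP-1 match whose first base is at -35 and a TATA box at -16. The Mmp12 stretch holds an AP-1 match at -44, and the rest of its window, which runs to 50 bases after the start, holds a TATA box at 5. Adam8 has a GC box on the other strand, and Mmp14 has 2 adjoining GC boxes and a RUNX match on the other strand.

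Windows of 300 bases, 250 before to 50 after the start, were found for 8 of the 10 members; Mmp9 and Mmp19 were not in the table used. The window of Mmp13 and the second window of Mmp12 held both the AP-1 motif and the TATA box. The Mmp8 window held a match to the TATA box letters on the other strand only, with its first base at -3. The first Mmp12 window, at the start of the longer transcripts, held an ETS match and none of the other motifs. The windows of Mmp14, Adam8, Adam17, Timp1 and Timp2 held a GC box and neither of those motifs. Of 32851 windows of this length, 7.81% held the AP-1 motif, 13.6% the TATA box, 35.7% the GC box, 16.8% the RUNX motif and 9.35% the ETS motif. A match describes letters only and is no evidence that a factor binds.

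Mmp14, the membrane-anchored collagenase also known as MT1-MMP that activates pro-MMP2 at the cell surface, was the most abundant member. Its level was 209.32, 264.57, 220.3 and 229.1 TPM in replicates 1 to 4, or 231 ± 23.9 TPM (SD, n = 4), above 97.2% of the 21946 genes with a mean over 0. No library stood apart. Mmp14 supplied 62.2% to 85.3% of the summed TPM of the 6 metalloproteinase members, with the lowest share in replicate 1.

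**Figure D1:**
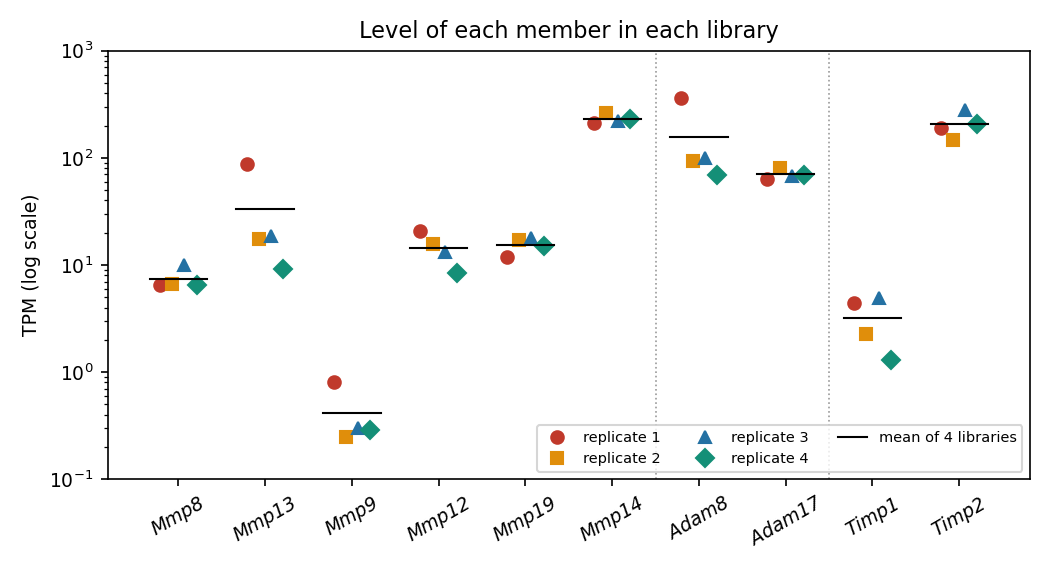
TPM (log axis) of each of the 10 members in replicates 1 to 4 (red circles, orange squares, blue triangles, green diamonds), with the mean of the 4 libraries as a bar; dotted lines part the metalloproteinases, the ADAMs and the TIMPs. Replicate 1 sits far above the others for Mmp13 (87.55 TPM) and Adam8 (361.05 TPM), while the 4 libraries of Mmp14 and Adam17 lie close together.

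The soluble collagenases lay lower, and their highest libraries differed. Mmp13, which cuts fibrillar collagens and is the main interstitial collagenase of rodents, had 87.55, 17.59, 18.74 and 9.12 TPM in replicates 1 to 4. Replicate 1 was high and replicate 4 was the lowest. In bulk RNA, more cells that express a gene and more RNA per cell cannot be told apart. Mmp8, the collagenase first known from neutrophil granules, had 6.55, 6.64, 10.05 and 6.45 TPM, with replicate 3 alone raised. Mmp13 exceeded Mmp8 in 4 of 4 libraries, with a mean log2 ratio of 1.53 ± 1.39 (SD, n = 4; TPM + 1), which ran from 0.44 in replicate 4 to 3.55 in replicate 1. It stayed below Mmp14 in 4 of 4 libraries, at a log2 ratio of -3.27 ± 1.41, or -3.94 ± 0.52 without replicate 1. Without that library the ratio of Mmp13 to Mmp8 was 0.85 ± 0.42.

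Mmp9, gelatinase B, which cuts denatured collagen and type IV collagen, was near the bottom of the range. It had 0.81, 0.25, 0.3 and 0.29 TPM, from 39, 12, 24 and 32 counts. By the authors' second quantification it had 0.525, 0.176, 0.243 and 0.409 TPM, so there replicate 1 stood less far above replicate 4. In CPM (counts scaled to a common library total, with no correction for length) replicate 1 had 1.52, with an exact 95% Poisson interval of 1.08 to 2.08, and replicate 2 had 0.438 (0.226 to 0.765). The intervals of replicates 2, 3 and 4 overlapped each other and none reached that of replicate 1; they cover counting error only.

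Mmp12, the macrophage elastase, had 20.65, 15.7, 13.22 and 8.37 TPM. Replicates 1 and 2 were both above 3 and 4. By the second quantification it had 15.7, 13.2, 13.8 and 8.97 TPM, with replicate 3 above replicate 2. Mmp19, a metalloproteinase of basement membrane proteins, had 11.83, 17.02, 17.71 and 15.17 TPM, with replicate 1 the lowest, so the high values of replicate 1 were not shared by every metalloproteinase.

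Both ADAMs were well expressed, and they were opposites in spread. Adam17, the tumour necrosis factor sheddase, had 63.6, 79.81, 67.57 and 69.78 TPM (70.2 ± 6.90, SD, n = 4). Adam8, a sheddase of leukocytes that needs no furin cut to become active, had 361.05, 94.45, 99.59 and 69.5 TPM. Adam8 exceeded Adam17 in 3 of 4 libraries and lay just below it in replicate 4 (log2 ratio -0.01). The mean log2 ratio was 0.82 ± 1.14 (exact two-sided sign-flip permutation test, p = 0.25; adjusted over 8 pairs, 0.286). Without replicate 1 the mean ratio was 0.26.

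Timp2, the inhibitor that also helps MMP14 to activate pro-MMP2, made up 97.7% to 99.4% of the summed TPM of the 2 TIMP members. It had 190.77, 146.01, 278.71 and 207.18 TPM (206 ± 55.1, SD, n = 4), higher in replicates 3 and 4 than in 1 and 2. Timp1, a secreted inhibitor known for its induction in inflamed tissue, had 4.4, 2.29, 4.92 and 1.3 TPM from 45, 25, 101 and 31 counts, high in replicates 1 and 3 and low in 2 and 4. The summed neutrophil and precursor markers, which are mostly S100a9 and S100a8, were high in the same pair of libraries. Their part in the Timp1 values was not tested.

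Against their inhibitors the proteases ranged widely. Timp2 exceeded Timp1 by a mean log2 ratio of 5.67 ± 0.58 (SD, n = 4), and Mmp12 exceeded Timp1 by 1.91 ± 0.46. Mmp9 lay below Timp1, at -1.50 ± 0.56, on a scale where the added 1 TPM compresses both genes; with 0.1 TPM added the ratio was -2.64 ± 0.77. These 3 pairs, Mmp13 with Mmp8 and with Mmp14, and Adam17 over Timp3, kept 1 sign in 4 of 4 libraries, and each had p = 0.13 by the exact two-sided sign-flip permutation test, the smallest that 4 libraries allow (0.167 adjusted over the 8 pairs). Timp3, the inhibitor that blocks ADAM17, had 0.13, 0.01, 0.23 and 0.09 TPM, from 1 to 35 counts a library. Its values lay below the added 1 TPM, which therefore sets the ratio of Adam17 to Timp3: 6.00 ± 0.24 with 1 TPM added and 8.46 ± 0.78 with 0.1 TPM.

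Mmp14 and Timp2 were close, with a mean log2 ratio of 0.20 ± 0.49 and p = 0.625 by the same exact permutation test. Timp2 was the higher of the pair in replicate 3 alone (-0.34). The mean ratio was 0.49 within replicates 1 and 2 and -0.10 within replicates 3 and 4, and it was -0.02 without replicate 2. By the second quantification the mean ratio was 0.08, and Timp2 was the higher in replicate 1 as well (175 against 164 TPM).

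By mean TPM the order was Mmp14, Timp2, Adam8, Adam17, Mmp13, Mmp19, Mmp12, Mmp8, Timp1 and Mmp9. Of the 9 pairs of neighbours, the 3 lowest kept their order in every library: Mmp12 above Mmp8 (log2 ratio 0.84 ± 0.59), Mmp8 above Timp1 (1.07 ± 0.51) and Timp1 above Mmp9 (1.50 ± 0.56, the size again depending on the added TPM), each with p = 0.13 by the exact sign-flip permutation test and 0.375 adjusted over the 9. The other 6 neighbours changed places in 1 of the 4 libraries, so the order of the 7 most abundant members is not settled between neighbours.

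The deposited notes list 6 read files each for replicates 1 and 2 and 4 each for replicates 3 and 4, and the meaning of that number is not stated. The same pairs differed in depth, with 25594340 and 27384162 counts in replicates 1 and 2 against 48875472 and 57126810 in replicates 3 and 4, and in the mitochondrial share given above. The part of depth and of that share in the differences between the pairs was not tested. Replicates 3 and 4 were set against 1 and 2 across all genes with edgeR's quasi-likelihood test. This compares libraries, not conditions. None of the 10 members passed an adjusted p of 0.05 by edgeR, against 5.8% of the 11991 genes tested; 2 members (Timp2 and Mmp12) had an unadjusted p under 0.05, against 28.5% of genes, and DESeq2 called none, against 15.6% of genes (6.68% higher and 8.88% lower). With no filter on low counts edgeR called 4 members, Adam8, Mmp13, Mmp12 and Timp2, against 11.7% of 22006 genes. In that fit the SE was 0.21 for Mmp13 and 0.25 for Adam8, against 0.81 and 0.69 with the filter. Replicates 1 and 2 differ widely for both genes, so the smaller SE does not reflect their spread between libraries. Why the SE fell was not tested. The median log2 fold change was -0.10 over the members and -0.01 over all genes tested.

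The widest differences were those of Mmp13 and Adam8. Mmp13 had a log2 fold change of -1.99 (SE 0.81; edgeR adjusted p = 0.178) and Adam8 one of -1.53 (SE 0.69; edgeR adjusted p = 0.209). Both rested on replicate 1: without it the log2 fold changes were -0.18 and -0.02, and without replicate 2 they were -2.76 and -2.25, with edgeR adjusted p of 0.0271 and 0.0210, where 5.44% of genes were called. For Timp2 the log2 fold change was 0.73 (SE 0.28; edgeR adjusted p = 0.158), and for Mmp12 it was -0.81 (SE 0.32; edgeR adjusted p = 0.163).

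Adam17 and Mmp14 had log2 fold changes of -0.04 and -0.08. For Mmp14 the sign turned to 0.26 with offsets for GC content and length, and none of these values passed the test. Mmp19 had 0.18 and Mmp8 0.33. The values of Mmp9 (-1.01) and Timp1 (-0.13) came from few counts, and both turned positive without replicate 1, at 0.35 and 0.60.

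**Figure D2:**
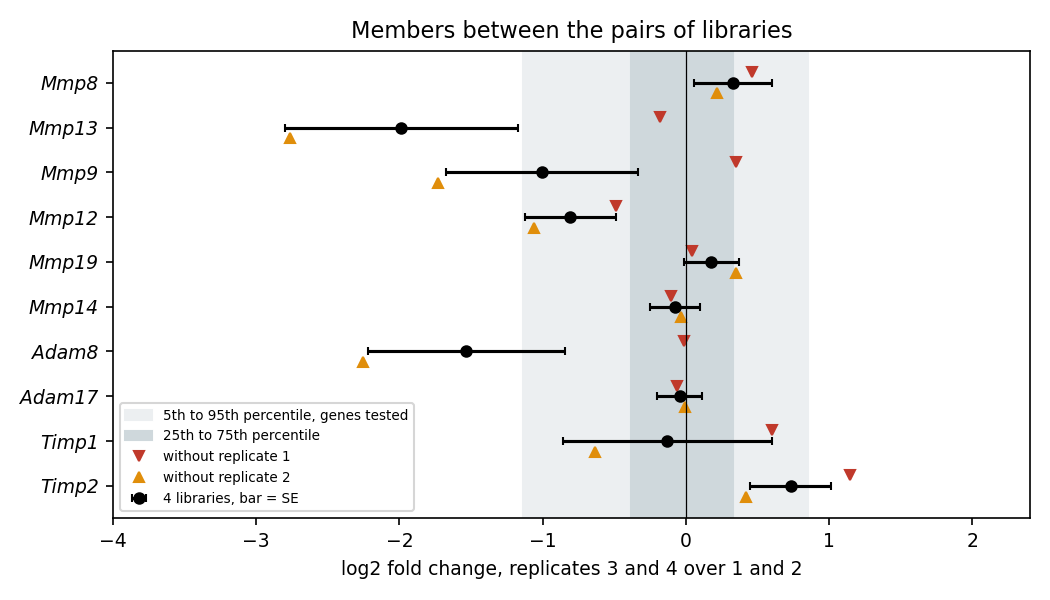
log2 fold change of each member, replicates 3 and 4 over 1 and 2 (black points, bars are the SE), with the value without replicate 1 (red, pointing down) and without replicate 2 (orange, pointing up); grey bands span the 5th to 95th and 25th to 75th percentiles of all genes tested. Mmp13 and Adam8 move from -1.99 and -1.53 to -0.18 and -0.02 without replicate 1.

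The spread of each gene over the 4 libraries was measured as the SD of log2 CPM after TMM normalisation, which does not depend on gene length. Adam17 had an SD of 0.04, with 0.392% of the tested genes lower, and Mmp14 one of 0.06, with 1.36% lower. Mmp13, at 1.45, lay above 99.5% of genes, and Adam8, at 1.17, above 98.6%. The median over genes was 0.31. The 10 members thus included some of the steadiest and some of the most variable genes of these libraries.

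**Figure D3:**
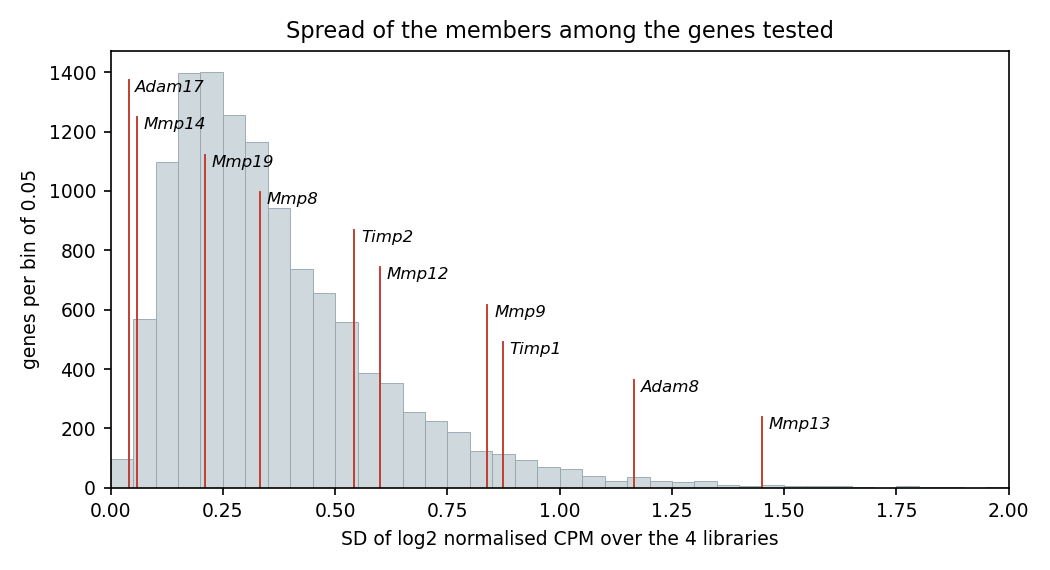
Number of tested genes by the SD of their log2 normalised CPM over the 4 libraries (grey bars, bins of 0.05), with the 10 members as red lines whose heights only separate the names. Adam17 and Mmp14 lie at the left end (0.04 and 0.06) and Adam8 and Mmp13 in the right tail (1.17 and 1.45).

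On the normalised CPM scale Mmp13 had 158, 26.8, 31.6 and 15.1 in replicates 1 to 4, a highest value 5.0 times the next. Adam8 had 765, 164, 197 and 124, a highest value 3.89 times the next. Of the 11991 genes, 52 (0.434%) had 1 library at least 3-fold above the next, and for 25 (0.208%) that library was replicate 1; this cut-off was set after the values were seen, so the 2 members past it are a description. Scaling the levels to protein-coding genes of the nuclear genome, which leaves out rRNA, still left replicate 1 above, at 101 against 10.9 to 22.2 for Mmp13 and 418 against 83.1 to 118 for Adam8. The osteoclast marker Acp5 was also highest in replicate 1 (76.41, 28.49, 45.03 and 27.86 TPM). Another such marker, Atp6v0d2, was instead highest in replicate 3 (10.54, 9.64, 26.94 and 16.04 TPM). The part of osteoclast-like cells in the Mmp13 and Adam8 values was not tested. The pairs of libraries did not overlap for 3 members, Mmp12, Mmp14 and Timp2, against 59% of the genes tested.

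Beside these members, Fos, a subunit of the AP-1 factor, had 30.88, 10.4, 5.41 and 3.92 TPM, also highest in replicate 1. Among 8 tested genes of AP-1, ETS and PU.1 factors, edgeR called 4 lower in replicates 3 and 4 and none higher. The shares over all genes tested were 3.72% and 2.08%. That list was chosen with earlier results of these data known, so its counts are a description. Junb had 156.76, 170.13, 49.43 and 50.25 TPM (log2 fold change -1.71, edgeR adjusted p = 0.0187), and Ets2 had 19.34, 18.3, 5.97 and 7.4 TPM (-1.48, edgeR adjusted p = 0.0326). Jund (-1.38) and Fosl2 (-1.57) were the others, and Jund was not called with GC content and length offsets (log2 fold change -0.65, edgeR adjusted p = 0.113) or by the second quantification (-1.17, edgeR adjusted p = 0.0530). Without replicate 1 the calls of Ets2 and Fosl2 were lost (edgeR adjusted p of 0.0522 and 0.0562), as was that of Fosl2 without replicate 2 (0.0534). Unlike Mmp13 and Adam8, Junb and Ets2 were high in both replicates 1 and 2. Spi1, which encodes PU.1, and Jun had means of 462 and 70.9 TPM and were not called.

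Rhbdf2 and Frmd8, partners of ADAM17, were lower in replicates 3 and 4. Of 9 tested genes for cofactors and activators of ADAM17 and ADAM10, edgeR called these 2 lower and none higher. The shares over all genes tested were 3.72% and 2.08%. This list too was chosen with earlier results of these data known, so its counts are a description. Rhbdf2, which encodes iRhom2, the cofactor that carries ADAM17 to the surface of macrophages, had 38.88, 46.48, 20.05 and 21.36 TPM (log2 fold change -1.01, edgeR adjusted p = 0.0326). Frmd8, whose product binds and stabilises iRhoms, had 16.19, 19.7, 6.59 and 6.35 TPM (-1.43, edgeR adjusted p = 0.0224). Both were still called with GC content and length offsets, where 2.92% of genes were lower. Without replicate 3 or without replicate 4 no gene of the table was called by edgeR, though 1955 and 1966 genes had an unadjusted p under 0.05, and Rhbdf2 was also lost without replicate 1 (edgeR adjusted p = 0.0546). DESeq2 called 3 lower, the third being Tspan17, a tetraspanin gene (25.07, 20.64, 10.98 and 11.88 TPM; log2 fold change -1.12, edgeR adjusted p = 0.0563), against 8.88% of genes. The partners with the highest means besides Rhbdf2 were Pacs2 and Tspan14, at 42.4 and 28.0 TPM. That the fold changes of Rhbdf2 and Adam17 differ was not tested.

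Substrates that ADAMs shed were abundant. Of 20 listed, 15 averaged 1 TPM or more and 9 averaged 100 TPM or more, led by the TNF receptor gene Tnfrsf1b (423 TPM), the CSF-1 receptor gene Csf1r (399 TPM) and the lipid receptor gene Trem2 (253 TPM). None of the 16 tested was called by edgeR; 2 had an unadjusted p under 0.05, against 28.5% of genes, and DESeq2 called Tnfrsf1b and Tnf lower, against 8.88% of genes. Tnf, the classical ADAM17 substrate, had 215.75, 385.84, 95.91 and 135.72 TPM, with replicates 3 and 4 below 1 and 2. Its log2 fold change was -1.34 with an edgeR adjusted p of 0.0502, and 0.0493 with GC content and length offsets.

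Most other genes of the protease families were at or near 0. Of 17 other metalloproteinase genes, 3 averaged 1 TPM or more, and 5 had no count in any library; a count of 0 allows up to about 3 counts (the one-sided 95% limit), or 0.0525 CPM in replicate 4 and 0.117 CPM in replicate 1. Mmp27 had 14.59, 11.04, 21.01 and 9.89 TPM, with a mean of 14.1 TPM against 14.5 TPM for Mmp12. Mmp25, a membrane-anchored leukocyte metalloproteinase, had a mean of 1.60 TPM, and Mmp2, gelatinase A, one of 1.45 TPM. None of the 4 tested was called by edgeR or DESeq2, and none had an unadjusted p under 0.05.

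Of 12 other ADAMs, 5 had a mean of at least 1 TPM. On the levels given here, Adam15 (99.1 TPM) was above Adam17 in every library. It was above Adam17 only in replicates 1 and 2 by the second quantification. There replicates 3 and 4 had 55.5 and 65.4 TPM for Adam15 against 68.8 and 70.7 TPM for Adam17. Adam10 (45.1 TPM), the sheddase of Notch and many receptors, was below Adam17 in every library. Adam9 (70.0 TPM) ran from 51 to 86.68 TPM, around the values of Adam17. None of the 7 tested was called by edgeR; 3 had an unadjusted p under 0.05, against 28.5% of genes, and DESeq2 called Adam22 higher in replicates 3 and 4, against 6.68% of genes. By the second quantification edgeR called Adam22 too (adjusted p = 0.0470). Of 19 ADAMTS proteases, which are secreted, only Adamts10 had a mean over 1 TPM (2.65), ahead of Adamts6 (0.435) and Adamts1 (0.14), and 10 had no count in any library. The 6 other inhibitors, led by Reck (0.132 TPM) and Timp3 (0.115 TPM), were all under 1 TPM, so Timp2 was the only abundant inhibitor of the lists examined.

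Lysosomal and secreted proteases outside these families reached far higher levels, with means of 7069 TPM for Ctsb, 4831 TPM for Ctss and 530 TPM for Ctsl, all cathepsins. None of 10 tested was called by edgeR; 6 had an unadjusted p under 0.05, against 28.5% of genes, and DESeq2 called 2 lower, against 8.88% of genes, Plau among them. Plau, the urokinase gene, had 52.97, 62.29, 27.63 and 36.55 TPM, with an edgeR adjusted p of 0.0534, and was called by edgeR with GC content and length offsets (0.0470) and by the second quantification (0.0476). Among matrix and matrix-binding genes, the phosphoprotein gene Spp1 (1249 TPM), the syndecan gene Sdc3 (863 TPM) and Thbs1 (104 TPM) led. None of 11 tested was called by edgeR, 4 had an unadjusted p under 0.05, and DESeq2 called Sdc1 lower, against the same 28.5% and 8.88% of genes.

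Mmp13, Mmp12 and Mmp8 sit in the metalloproteinase cluster of chromosome 9, where 10 such genes span chr9:7272514-7699585 (mm10). Mmp13 (chr9:7272514-7283331), Mmp12 (chr9:7344381-7369499) and Mmp8 (chr9:7558456-7568485) all lie on the plus strand, and with Mmp27 they were the 4 genes of the cluster with a mean of at least 1 TPM. After Mmp12 and before Mmp8 come Mmp1b, Mmp3, Mmp1a and Mmp10, which had 0, 1, 0 and 9 counts over all libraries. Mmp1b overlaps the end of Mmp12 on the opposite strand. Mmp20 and Mmp7 had no counts. Expressed genes and genes near 0 were interspersed within these 427 kb. Among the expressed genes the library patterns differed: Mmp13 and Mmp12 were highest in replicate 1, and Mmp8 and Mmp27 in replicate 3.

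**Figure D4:**
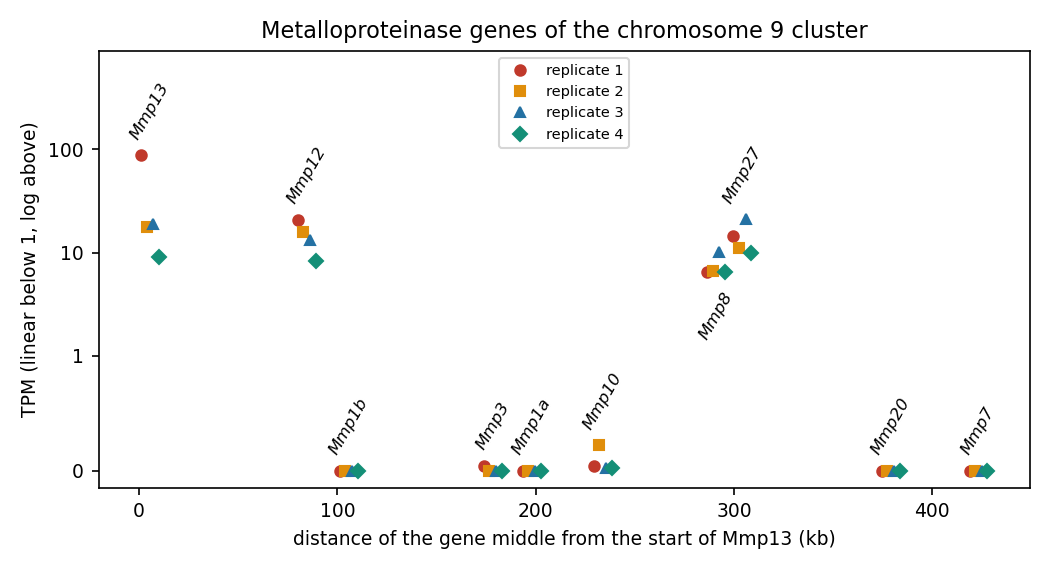
TPM in replicates 1 to 4 (symbols as in the plot of levels by library; axis linear below 1 and logarithmic above) of the 10 metalloproteinase genes of the chromosome 9 cluster, by the distance of the gene middle from the start of Mmp13 in kb. Mmp13, Mmp12, Mmp8 and Mmp27 are expressed, and the 6 others lie at or near 0.

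The other members are scattered: Adam8 at chr7:139978932-139992562 (minus strand), Adam17 at chr12:21323509-21373632 (minus), Mmp14 at chr14:54431612-54445364 (plus), Mmp19 at chr10:128790910-128800824 (plus), Mmp9 at chr2:164940780-164955850 (plus), Timp1 at chrX:20870166-20874735 (plus) and Timp2 at chr11:118301069-118355740 (minus). Of the 10 members, 6 overlap another gene, and the sources used here do not say if counting used strand. Reads shared with a gene on the other strand cannot be told apart. Timp1 lies wholly within Syn1 on the opposite strand, and Syn1 had 8.27, 6.29, 12.01 and 17.36 TPM, more than Timp1 in every library. These overlaps are of whole gene spans, and whether exons overlap was not examined. The part of Syn1 reads in the low Timp1 values was not tested. Adam17 overlaps the end of Iah1 (24.51 to 31.01 TPM) and Mmp19 the end of Tmem198b (2.82 to 4.91 TPM).

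Transcript models added a further layer, quantified by the authors from the transcriptome alignment and, in another table, straight from the reads. Mmp8 and Mmp13 each have 1 annotated transcript. Mmp14-201 held 97.0 ± 0.901% of the Mmp14 TPM and Adam17-201 93.8 ± 0.691% of the Adam17 TPM (SD, n = 4, from the alignment), so each was quantified as a single main form. Adam8-201 held 65.8 ± 1.47% and Adam8-202, another coding form of nearly the same length (3117 against 3100 nt), 28.4 ± 3.11%.

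The Mmp12 models were less certain. From the alignment Mmp12-204, annotated as a target of nonsense-mediated decay, had the highest mean share, with 39.9 ± 10.2% and a range of 32.0% to 54.9%, and the coding form Mmp12-203 held 32.5 ± 17.2%, from 9.10% to 46.7%. Straight from the reads Mmp12-204 held 23.8 ± 10.7% and Mmp12-203 49.3 ± 16.3%. By both tables Mmp12-204 led in replicate 2 and Mmp12-203 in replicates 3 and 4. In replicate 1 the leader turned on the quantification. Timp2 was divided between Timp2-202 (718 nt), with 54.2 ± 6.31%, and Timp2-201 (3709 nt), with 45.8 ± 6.31%, from the alignment, and 61.8 ± 8.49% and 38.2 ± 8.49% straight from the reads. Since TPM divides by length, that division feeds into the Timp2 level: its effective length was 1731, 1641, 1882 and 2064 nt in replicates 1 to 4. Mmp19-201 held 67.8 ± 6.49% by the first table and 59.3 ± 8.88% by the second, and Timp1-201 60.4 ± 7.76% and 61.6 ± 7.96%. Mmp9-201 led in Mmp9, with 85.3 ± 9.70% and 87.0 ± 16.8%, from very few counts.

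**Figure D5:**
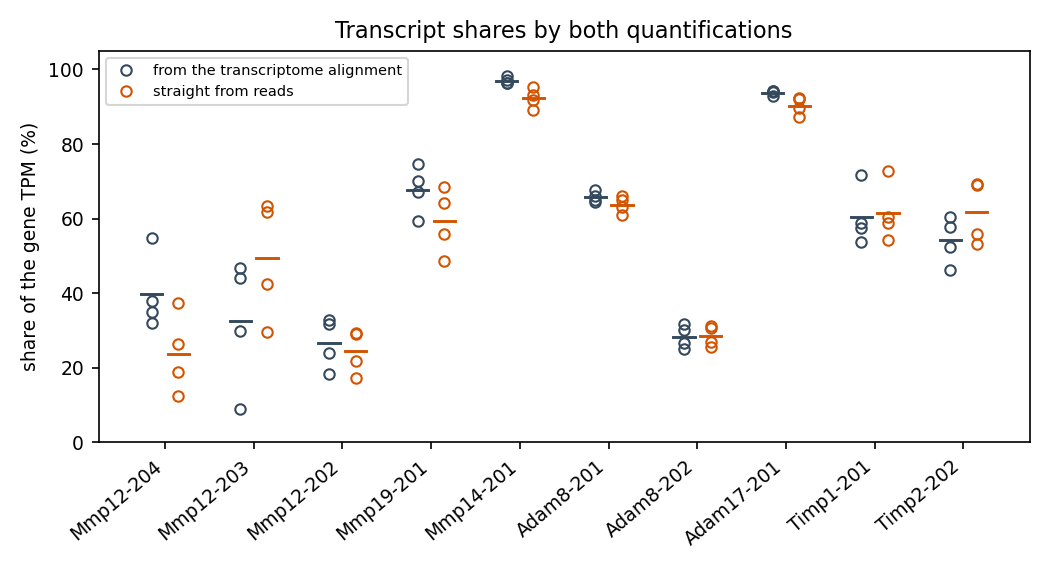
Share of the gene TPM (percent) held by 10 transcripts of Mmp12, Mmp19, Mmp14, Adam8, Adam17, Timp1 and Timp2. Each open circle is a library and each bar the mean of 4, from the transcriptome alignment (dark blue) and straight from the reads (orange). The tables part most for Mmp12, where the mean share of Mmp12-204 is 39.9% in one and 23.8% in the other.

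For each member the 2 protein-coding genes closest in level and library pattern were found among 22028, by the mean absolute difference in log2(TPM + 1) over the 4 libraries. Adam17 was nearest to the proteasome subunit gene Psmd3 (0.03) and to Mtch2 (0.06), Mmp19 to Zfp35 (0.04) and Prkra (0.06), and Mmp8 to Rara (0.05) and Bco2 (0.09). Mmp14 was nearest to Plxnb2 and Fermt3 (0.08 each), Timp2 to Ifnar2 (0.09) and Ptk2b (0.17), Mmp12 to Ap4s1 (0.10) and Pex13 (0.12), Mmp9 to Enpp6 (0.06) and Nr0b2 (0.07), and Timp1 to Nes (0.16) and Rrm2 (0.18). Adam8 and Mmp13 had no close neighbour: the nearest to Adam8 were Xylt2 (0.35) and Kctd12 (0.36), and to Mmp13 Galnt2 (0.44) and Ccr1 (0.46).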

How the data were processed

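RNA was measured by polyA-plus RNA-seq in 4 libraries of 1 group. Per the deposited notes, the authors quantified each library on mm10 with GENCODE M21. 1 gene and 1 transcript table came from an alignment to the transcriptome, and another transcript table came straight from the reads. The sources used here name no program. Per the file headers, the deposited values are expected counts, which are estimates and were rounded for tests, and TPM, normalised by the authors within each library. Effective lengths were used as deposited (the other unit read).

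Of 81881 gene rows, 26345 outside GENCODE M21 (0.0419% to 0.128% of counts) were left out. Members were matched by symbol through the gene identifier. All genes were fitted with edgeR 4.0.16 under R 4.3.3, with TMM scaling, a filterByExpr minimum of 10 counts over all libraries and Benjamini-Hochberg adjustment; the script was tested on simulated data. DESeq2 1.42.0 was an alternative. Ratios used log2(TPM + 1) and exact sign-flip permutation tests. 3 counts corresponded to 0.117, 0.110, 0.0614 and 0.0525 CPM in replicates 1 to 4. The members and lists were chosen with earlier results of these data known. Named genes were all members, both genes of each pair, the 3 most abundant genes and every gene of each list called by edgeR, the 2 nearest genes of each member and its leading transcripts. Mmp27 and Syn1, Tnf, Fos and the named genes called by DESeq2 alone were named after their values were seen, and the motifs and the 3-fold cut-off were also set then. Promoter windows were credited to RefSeq, GRCm38.p6. Values of 1 gene outside the members are not reported here.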

Additional observations from a re-analysis of the deposited data

Results flagged for a closer look

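4 values lay apart from the other 3 libraries of the group by Dixon's ratio at the 95% level, out of 19 groups of values examined; chance alone marks about 1 in 20 groups. Replicate 1 held 3 of them: Adam8 at 361.05 TPM, Mmp13 at 87.55 TPM and Mmp9 at 0.81 TPM. The fourth was Mmp8 in replicate 3, at 10.05 TPM. The Adam8 and Mmp13 values came from 17416 and 3605 counts and the Mmp9 value from 39. By the second quantification Mmp9 stood less far apart, at 0.525 TPM in replicate 1 and 0.409 TPM in replicate 4. Replicate 1 was also the library with the most of the rRNA gene CT010467.1 (84919.8 TPM); scaled to nuclear protein-coding genes, Adam8 still had 418 and Mmp13 101 there. Replicates 1 and 3 were the libraries with more S100a8 and S100a9, whose part in these values was not tested.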

How the results depend on the processing

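No paired analysis was possible because the series has 1 group. Over the alternatives, 93 of 96 recomputed ratios of 2 genes kept their direction and 3 reversed. Some of the 96 could not reverse, because a setting that required both genes at 1 TPM or more in every library repeats the main value. None could pass the test with 4 libraries. Of 160 recomputed log2 fold changes of named genes, 130 kept direction and call, 6 reversed, 6 gained a call and 18 lost one. Of 20 recomputed counts of calls, 13 stayed within 1.5 times. Of 60 recomputed mean levels 3 moved by more than 1 SD between libraries, as did 6 of 8 transcript shares. All 3 levels moved with the second quantification or with scaling to nuclear protein-coding genes. The levels with 1 library left out could not count as moved, because dropping 1 of 4 values shifts a mean by less than 1 SD. With 0.1 TPM added in place of 1, the ratio of Adam17 to Timp3 rose from 6.00 to 8.46 and that of Mmp9 to Timp1 went from -1.50 to -2.64. Genes called by edgeR (696) became 1866 with DESeq2, 2569 with no filter on low counts and 0 to 671 when 1 library was left out: 0 without replicate 3 or without replicate 4, 177 without replicate 1. Members called (0) became 4 with no filter on low counts (Adam8, Mmp13, Mmp12 and Timp2) and 0 to 2 when 1 library was left out. The fit with no filter gave these 4 members smaller SEs than the main fit, and for Mmp13 and Adam8 they do not reflect the spread between libraries. A filter set by the pairs of libraries, tried after seeing the data, called 729 genes and 0 members. Leaving out 1 library moved the log2 ratio of Mmp14 over Timp2 between -0.020 and 0.38, of Mmp13 over Mmp19 between -0.18 and 0.97, and of Mmp19 over Mmp12 between -0.083 and 0.43. It moved the log2 fold change of Mmp8 between -0.029 and 0.63, of Mmp9 between -1.73 and 0.35, and of Timp1 between -1.39 and 0.60 (0.55 without replicate 4). The sign of Mmp14 turned with GC content and length offsets (0.26), and that of Adam17 with no filter (0.0073). By the second quantification the shares were 23.8% for Mmp12-204, 92.3% for Mmp14-201, 59.3% for Mmp19-201, 63.8% for Adam8-201, 90.3% for Adam17-201 and 61.8% for Timp2-202. Mean Adam17 was 61.4 TPM by the second quantification and 80.9 scaled to nuclear protein-coding genes, and mean Mmp14 was 266 so scaled. The causes of these shifts were not tested. Depth limits Mmp9 and Timp1, with 12 to 39 and 25 to 101 counts a library.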

Other observations

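For 25 genes replicate 1 was highest by at least 3-fold; those named here were chosen after their values were seen. In normalised CPM, Etv5, an ETS factor, had 123, 24.5, 20.1 and 25.9 in replicates 1 to 4. Dusp6, a phosphatase of the MAP kinase ERK, had 55.4, 11.6, 7.70 and 7.54, and the cyclin gene Ccnd1 had 468, 94.2, 114 and 107. Adam8 and Mmp13 were high in that same single library. Ccr3, Cx3cr1 and Slamf9, receptors of leukocytes, and Dmpk, a kinase gene of muscle, are also among the 25. By the same measure 22 genes stood out in replicate 2, among them Il6, Cxcl1, Cxcl2 and Ptgs2, and 5 in replicate 4. None of those in replicates 2 and 4 was a member, and replicate 3 had no such gene.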
